A study of Rattus norvegicus with 4 samples.

Results

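Rgs1, Rgs2, Rgs3, Rgs16 and Rasd1 encode proteins that damp signalling by G-protein-coupled receptors. They were chosen by gene symbol, and each was read from its brightest probe set, by the mean of the 4 arrays. All 5 genes were on the array with 8 probe sets in all, among 14217 genes with a probe set of a single symbol. Of the 5, 4 had a value above the floor, a level of 4.51 on the log2 scale below which values were not read, as had 9393 of the 14217 genes. The 5 genes were chosen with results of these arrays in view, so their values are given as a description, without a test.

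The study used kidneys of male Wistar rats in an ex vivo model of donation after cardiac death. Each kidney had 29 min of primary warm ischaemia in the body and 3 h of cold machine perfusion with University of Wisconsin solution, an organ preservation fluid. The heparin kidneys had low molecular weight heparin at 10 IU/ml in both perfusates, and the PPS kidneys had PPS, named only by that abbreviation in the labels, at the same concentration. Both sets were then perfused warm for 30 min with modified Krebs-Henseleit buffer, an oxygenated salt solution. The warm kidneys had the same cold and warm perfusion without a supplement, and the cold kidneys had the cold perfusion only. Each group is 1 Affymetrix array with an equal mixture of RNA from the 3 kidneys of best RNA quality, so the differences below have no replicate check, and the spread between kidneys is not known. No group is a fresh kidney, since the cold kidneys had the ischaemia and the cold perfusion too.

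A G-protein-coupled receptor switches on the alpha subunit of a G protein by loading it with GTP. Regulators of G-protein signalling, the RGS proteins, speed up the hydrolysis of that GTP and so shorten the signal. Several RGS genes are themselves induced when receptors fire, which makes them feedback brakes, and Rgs2 is known for limiting the response of vascular smooth muscle to vasoconstrictors such as angiotensin II. Rasd1 is a Ras-like GTPase, first found as a gene induced by dexamethasone, that acts on the same G proteins and on adenylyl cyclase signalling.

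The data show 3 of these brakes far higher after warm perfusion. Rgs1, Rgs2 and Rasd1 were higher on all 3 warm-perfused arrays than on the cold array, by at least 5.46-fold in every case, and highest on the warm array. With PPS in the perfusate, the same 3 genes were 2.03-fold to 3.69-fold lower than on the warm array, and with heparin 1.55-fold to 2.04-fold lower. The smaller of these differences lie near the 2-fold limit and depend on the scaling, as given beside each. The sizes against the cold array depend on it as well. Under a scaling to spike-in controls, given below, Rgs2 was only 0.69 higher in PPS minus cold on the log2 scale, short of 2-fold. Rgs3 differed by less than 2-fold in every comparison, and Rgs16 had no signal on any array.

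The promoters of the 3 genes are shown because these genes differed in the same direction in each comparison. RefSeq gives a promoter for all 5 genes on the rat assembly GRCr8, and the 250 bases before the gene start are printed 5′ to 3′ on the gene's strand. Capitals mark TGACG, the core of the cAMP response element, or its complement CGTCA, and in Rgs1 also TATAAA, the TATA box.
Rgs1 (chr13:58573188-58573437, minus strand): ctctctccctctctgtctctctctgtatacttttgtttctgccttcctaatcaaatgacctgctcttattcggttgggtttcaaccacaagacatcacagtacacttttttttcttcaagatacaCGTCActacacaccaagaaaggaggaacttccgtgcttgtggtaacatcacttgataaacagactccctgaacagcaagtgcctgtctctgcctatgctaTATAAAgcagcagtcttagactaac
Rgs2 (chr13:58352667-58352916, minus strand): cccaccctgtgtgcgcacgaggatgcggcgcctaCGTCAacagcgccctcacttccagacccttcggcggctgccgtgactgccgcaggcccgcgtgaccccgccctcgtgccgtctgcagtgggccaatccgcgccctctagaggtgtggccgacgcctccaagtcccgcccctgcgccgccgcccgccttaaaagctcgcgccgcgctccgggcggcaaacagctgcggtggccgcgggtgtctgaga
Rasd1 (chr10:45267683-45267932, minus strand): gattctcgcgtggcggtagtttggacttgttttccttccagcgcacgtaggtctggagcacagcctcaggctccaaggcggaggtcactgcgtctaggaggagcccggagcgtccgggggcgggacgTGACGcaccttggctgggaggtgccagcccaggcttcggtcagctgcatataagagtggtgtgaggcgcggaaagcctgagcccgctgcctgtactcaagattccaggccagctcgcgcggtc

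The core TGACG lay 121 to 125 bases before the start of Rgs1, 212 to 216 bases before that of Rgs2 and 119 to 123 bases before that of Rasd1. Rgs3 held it as well, 25 to 29 bases before its start, and Rgs16 did not. Searched on both strands, it was in 4 of the 5 windows and in 19% of 27457 windows of the same length before all genes with a full entry. The complete element TGACGTCA, which contains the core, was in none of the 5 windows and in 1.7% of all. TATAAA was in the windows of Rgs1, 20 to 25 bases before the start, and Rgs3, 179 to 184 bases before it, and in 13.1% of all windows. TGANTCA, the AP-1 motif, and GGGANTTCC, an NF-kappaB motif, were in none of the 5, against 6.36% and 1.51% of all. The GC box CCGCCC was in 4 of the 5 and in 32.4% of all windows, the window of Rgs1 being the one without it. The windows also differ in base composition, with 42.8% G and C in Rgs1, 72.4% in Rgs2 and 64% in Rasd1, against a median of 52% over all windows. A match describes the letters and is no evidence of binding.

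Rgs1 (Entrez 54289, probe set 1398540_at) was the member with the largest difference. It encodes an RGS protein best known from lymphocytes and other leukocytes, where it restrains signalling by chemokine receptors. Its log2 value was 9.77 on the heparin, 9.08 on the PPS, 10.40 on the warm and 3.92 on the cold array. The cold value lies below the floor, so that each difference from it is a lower bound: at least 38.3-fold on the heparin, at least 23.7-fold on the PPS and at least 59.3-fold on the warm array. Rgs1 was thus read on every warm-perfused array and not on the cold one.

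Rgs2 (Entrez 84583) was read by 2 probe sets that moved alike. The one with the higher mean, 1387074_at, had log2 values of 10.24 on the heparin, 9.86 on the PPS, 10.88 on the warm and 7.41 on the cold array. The other, 1368144_at, had 9.04, 8.73, 9.91 and 5.67 in the same order. Both gave the order warm, heparin, PPS, cold, and all 8 values were above the floor. By the first probe set Rgs2 was 11.1-fold higher on the warm than on the cold array, and by the second 18.9-fold.

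Rasd1 (Entrez 64455, probe set 1387908_at) had log2 values of 8.58 on the heparin, 7.73 on the PPS, 9.61 on the warm and 5.03 on the cold array. It was 23.8-fold higher on the warm than on the cold array. Its cold value lies only just above the floor, which makes the size of that fold uncertain. Among the members it had the widest gap between heparin and PPS.

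Rgs3 (Entrez 54293, probe set 1367957_at), whose product also acts on Gi and Gq alpha subunits, differed less than the 3 others. It had log2 values of 7.66 on the heparin, 7.67 on the PPS, 8.16 on the warm and 7.39 on the cold array, a range of 0.77. In warm minus cold 386 of the 9393 genes, or 4.11%, had a difference at least as large. A second probe set, 1374528_at, ranged over 0.23, and the last one, 1376803_at, stayed below the floor on all 4 arrays. Rgs16 (Entrez 360857), an RGS gene inducible in many tissues, had its single probe set 1373777_at at 2.11 on the heparin, 2.11 on the PPS, 2.12 on the warm and 2.11 on the cold array. These values are at or within 0.01 of the lowest in the table, and no difference was read from them.

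**Figure D1:**
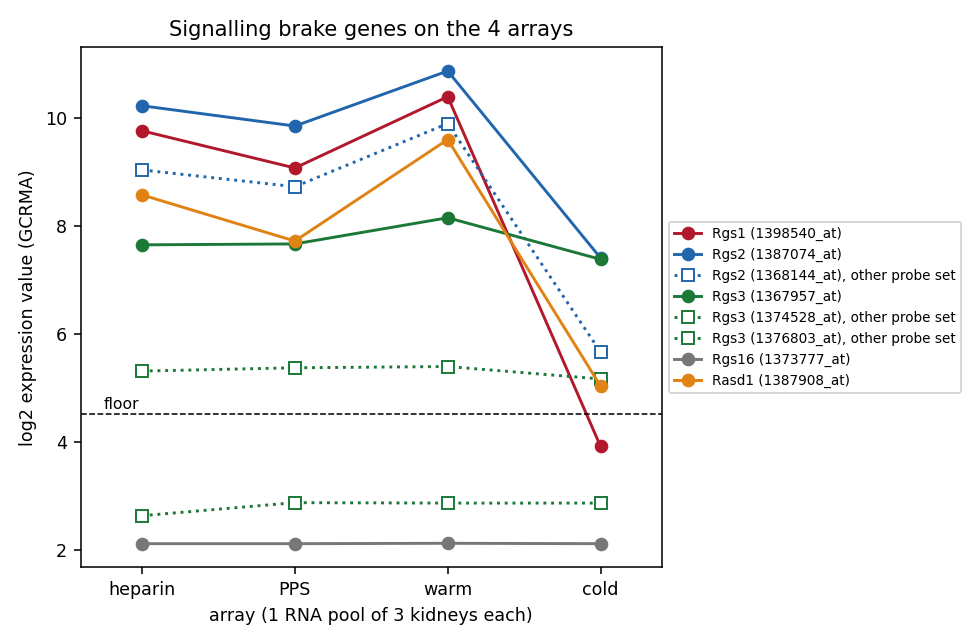
Deposited log2 expression values of the 8 probe sets on the heparin, PPS, warm and cold arrays, with filled circles for the probe set read for each gene, open squares for other probe sets of Rgs2 and Rgs3, and a dashed line at the floor of 4.51. Rgs1, Rgs2 and Rasd1 peak on the warm array (10.40, 10.88 and 9.61) and are lowest on the cold array (3.92, 7.41 and 5.03), while Rgs16 stays at 2.11 to 2.12.

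Warm was set against cold to ask what 30 min of warm oxygenated perfusion adds. A difference counted from 2-fold, a log2 difference of 1. In warm minus cold, 3 of the 4 measured members were higher by that size and none lower, and 2.48% of all 9393 genes were higher by it. The log2 differences were at least 5.89 for Rgs1, 4.57 for Rasd1, 3.47 for Rgs2 and 0.77 for Rgs3. With genes at the floor counted at their bound, 16 of the 9393 genes had a difference as large as that of Rasd1, itself included, and 34 had one as large as that of Rgs2. The median of the 4 was 4.02, against -0.0032 for all genes. These genes were chosen for this contrast, so nothing is read from their share.

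The spike-in controls set the cold array apart, and this touches each difference from it. All 24 probe sets of the poly-A controls, bacterial transcripts added to RNA before labelling, were higher on the heparin, PPS and warm arrays than on the cold one, with median log2 differences of 1.28, 1.10 and 1.25. The 3′ signal of Actb exceeded its 5′ signal by 3.39 on the heparin, 3.19 on the PPS, 3.22 on the warm and 2.79 on the cold array, a measure of RNA quality. With each array scaled by the median difference of its poly-A controls from their means over the 4 arrays, a choice that puts the median gene at -1.19 in warm minus cold, Rgs1 was still at least 4.70, Rasd1 3.39 and Rgs2 2.28 higher on the log2 scale, while Rgs3 turned to -0.42. Positive differences from the cold array smaller than this shift, such as those of Rgs10, Itpr3 and Nphs1 below, turn negative with it. They are to be read relative to the median gene. RNA quality and warm perfusion cannot be told apart in these comparisons.

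Both supplemented arrays were also 2-fold or more above the cold array for 3 of the 4 members. In heparin minus cold, the log2 differences were at least 5.26 for Rgs1, 3.55 for Rasd1 and 2.82 for Rgs2, and 1.17% of all genes were 2-fold or more higher. In PPS minus cold, they were at least 4.57 for Rgs1, 2.69 for Rasd1 and 2.45 for Rgs2, and 1.03% of all genes were higher by that size. Rgs3 differed by 0.27 in heparin minus cold and by 0.29 in PPS minus cold, and both turned negative under that scaling. When each array was instead scaled to the median level of its poly-A controls, Rgs2 lost the 2-fold call in heparin minus cold (0.91). Rasd1 (0.93) and Rgs2 (0.69) lost it in PPS minus cold. With the floor at the 60th percentile Rasd1 was at 0.99 in PPS minus cold. These comparisons share the cold array with warm minus cold and are no separate evidence.

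The supplemented arrays were set against the warm array to ask what heparin, tested for anti-inflammatory properties, and PPS change. All 4 measured members were lower on both than on the warm array by some amount, as were 46.3% of all genes in the comparison for heparin and 49.4% in that for PPS. In heparin minus warm, the log2 difference was -1.03 for Rasd1, -0.64 for Rgs2, -0.63 for Rgs1 and -0.50 for Rgs3. Only Rasd1 passed 2-fold, by a margin of 0.03, in a comparison in which 1.48% of all genes were lower by that size. It lost the call when scaled to the median level of the poly-A controls (-0.88) or the hybridisation controls (-0.75). In PPS minus warm, the log2 difference was -1.88 for Rasd1, -1.32 for Rgs1, -1.02 for Rgs2 and -0.49 for Rgs3. There 3 of the 4 were lower by 2-fold or more, against 1.71% of all genes. Rgs2 lost that call when arrays were centred on the median gene (-0.98) or scaled to the poly-A controls by their median level (-0.72) or median difference (-0.91). Of 9393 genes, 43 were as low as Rasd1 or lower in PPS minus warm, 98 as low as Rgs1 and 156 as low as Rgs2. The second probe set of Rgs2 gave -0.86 with heparin and -1.17 with PPS.

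**Figure D2:**
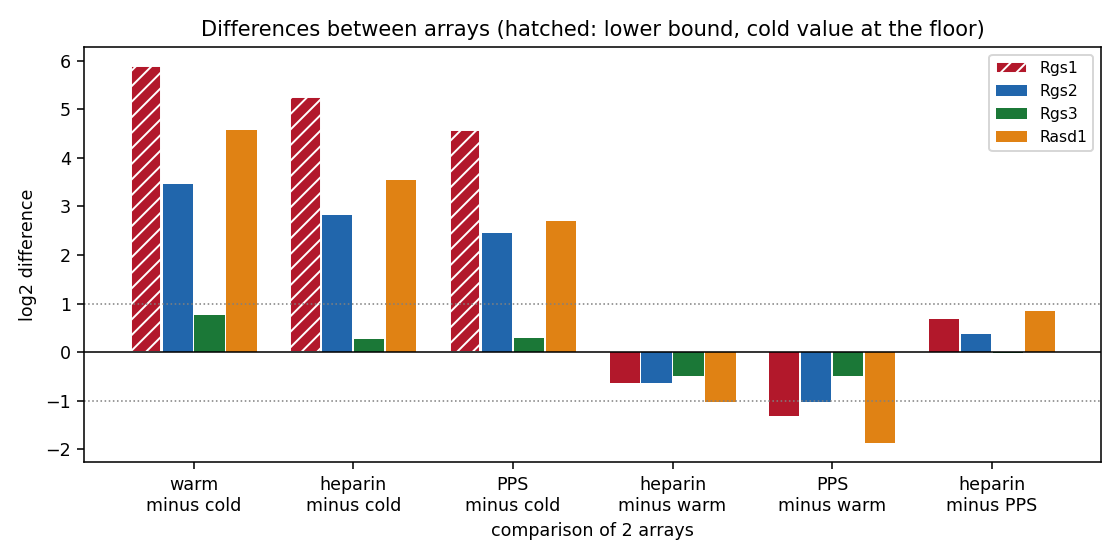
Log2 differences of Rgs1, Rgs2, Rgs3 and Rasd1 in 6 comparisons of 2 arrays, with dotted lines at 2-fold and hatched bars for lower bounds. The 3 differences from the cold array are between 2.45 and 5.89 for Rgs1, Rgs2 and Rasd1, and the differences from the warm array are all negative, from -0.49 to -1.88.

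**Figure D3:**
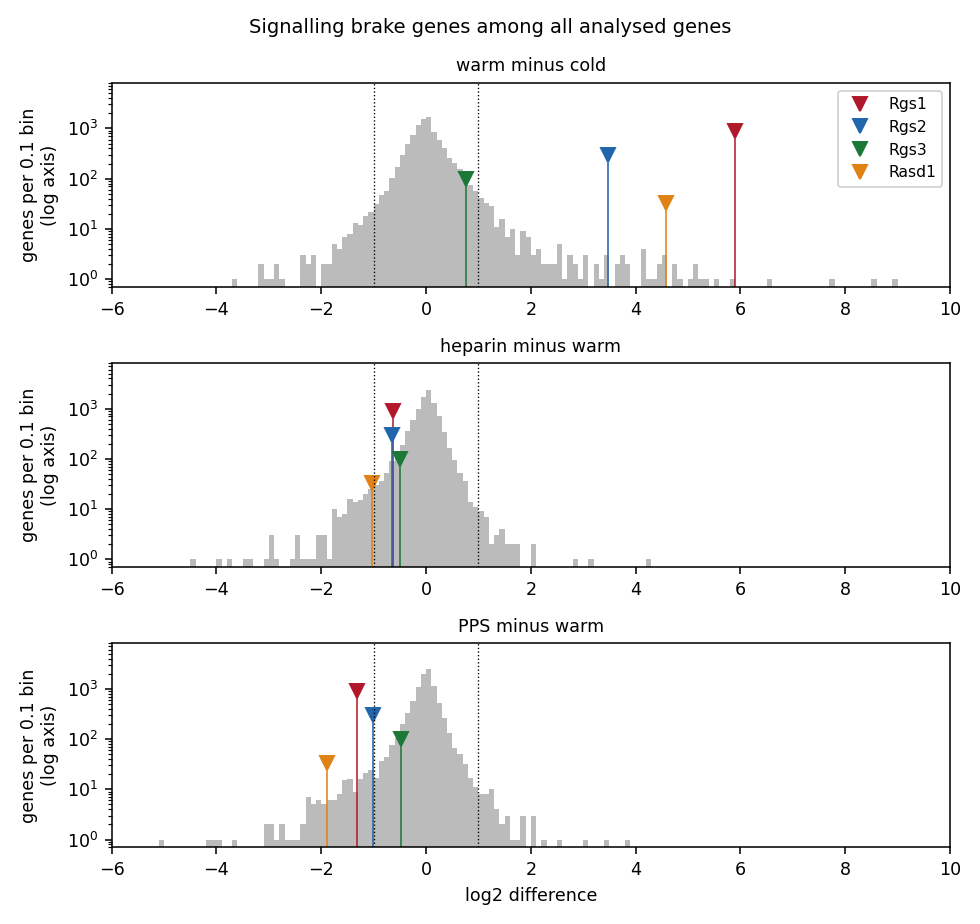
Number of genes per bin of 0.1 in log2 difference, on a log axis, over the 9393 analysed genes in 3 comparisons, with triangles at the signalling brake genes (their height has no meaning) and dotted lines at 2-fold. In warm minus cold Rgs2, Rasd1 and Rgs1 lie at 3.47, 4.57 and 5.89, and in PPS minus warm Rasd1 lies at -1.88.

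Heparin and PPS were compared at the same 10 IU/ml. None of the 4 members differed by 2-fold in heparin minus PPS, where 0.192% of all genes were higher and 0.298% lower by that size. Rasd1 was higher with heparin by 0.86, Rgs1 by 0.69 and Rgs2 by 0.38 on the log2 scale, and Rgs3 differed by -0.02. For scale, the SD of the heparin minus PPS differences over the genes above the floor on all arrays was 0.23, a figure that holds any real difference between the supplements. Over the 9393 genes, 35 were as high as Rasd1 or higher, 76 as high as Rgs1 and 405 as high as Rgs2. The 18 hybridisation control probe sets, spiked in after labelling, had a median of -0.47 in heparin minus PPS, so that scaling to them moves Rasd1 and Rgs1 past 2-fold. A difference between the supplements for these genes was not tested.

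Rgs1, Rgs2 and Rasd1 thus shared 1 order of levels, warm above heparin above PPS above cold. That order was held by 584 of the 9393 genes, or 6.22%, and by 110 of the 233 genes at least 2-fold higher in warm minus cold, or 47.2%. Rgs3 had the order warm, PPS, heparin, cold, with PPS and heparin 0.02 apart.

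Likeness of pattern was measured as the root mean square distance between log2 values over the 4 arrays, each gene centred on its own mean and values below the floor raised to it. The nearest of 9389 other genes to Rasd1 was Nr4a2, an orphan nuclear receptor, at 0.21, followed by the MAP kinase phosphatase Dusp1 and the inducible heat shock protein Hspa1a, both at 0.23. The nearest to Rgs2 were Kcnab1, a subunit of potassium channels, at 0.24, the AP-1 subunit Jun at 0.25 and Hspa1a at 0.27. Rgs1 had no neighbour as close, with the early growth response factor Egr1 at 0.45, Dusp1 at 0.53 and the stress gene Gadd45b at 0.59. Among the members, Rgs2 and Rasd1 were 0.43 apart, Rgs1 and Rasd1 0.74, and Rgs1 and Rgs2 1.01. The cold value of Rgs1 was raised to the floor, so its distances are to a clipped profile.

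**Figure D4:**
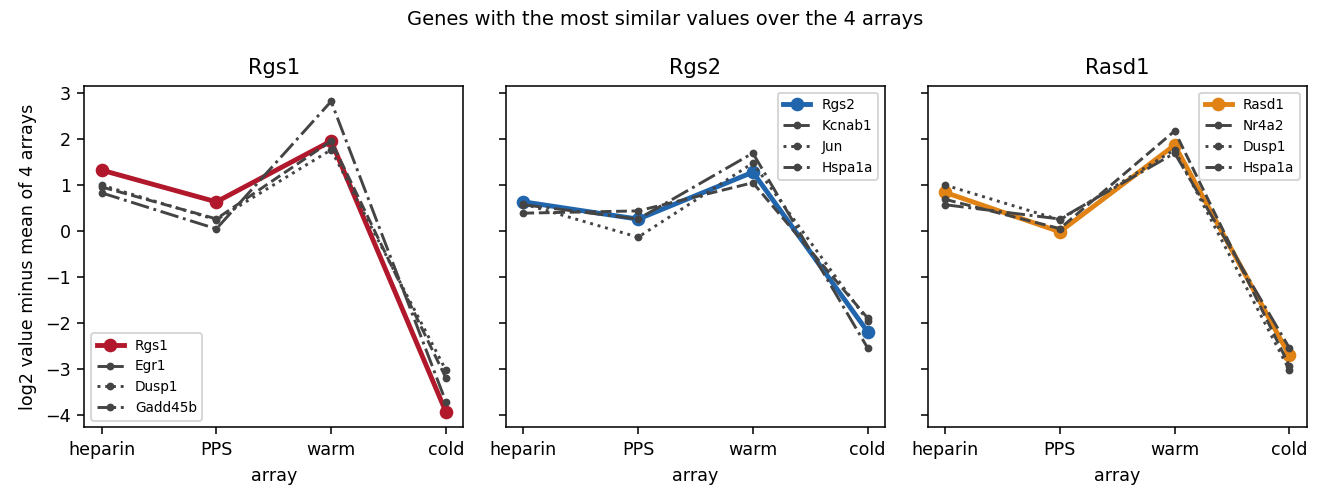
Log2 values of Rgs1, Rgs2 and Rasd1 (coloured) and of the 3 genes nearest to each (grey) on the heparin, PPS, warm and cold arrays, each minus its mean over the 4 arrays, with values below the floor raised to it. The grey lines follow Rasd1 within a root mean square distance of 0.21 to 0.23 and Rgs1 within 0.45 to 0.59.

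Rgs1 and Rgs2 are also near each other in the genome. On GRCr8, Rgs2 and Rgs1 lie next but one to each other on chromosome 13, with Rgs13 between them and Rgs21 and Rgs18 beyond Rgs1. Rgs13 and Rgs21 have no probe set named here, and Rgs18, an RGS gene of platelets, was below the floor on all arrays. Uchl5, a deubiquitinase gene on the other side of Rgs2 and named for its place, had log2 values of 10.01 on the heparin, 9.98 on the PPS, 9.94 on the warm and 9.91 on the cold array. The 2 genes that differed thus stand beside 1 measured neighbour that was level.

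Most of the rest of the RGS family gave no signal. Of 18 other RGS genes looked for, 14 were on the array and only Rgs10 was above the floor, with 7.60 on the heparin, 7.60 on the PPS, 7.46 on the warm and 7.27 on the cold array. Rgs10 is known from microglia and other myeloid cells, and it differed by 0.19 in warm minus cold. Rgs5, a marker of pericytes, had 3.81, 3.80, 3.37 and 3.82 on the same arrays in that order, all below the floor.

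The G proteins on which the brakes act were read only in part. Of 11 alpha subunits on the array, 5 were above the floor, while Gnaq and Gna11 were below it on every array. Of 5 alpha subunits above the floor, 1 was lower by 2-fold or more in warm minus cold, where 1.16% of all genes were, and none was higher. This was Gna14, an alpha subunit of the Gq class, with log2 values of 5.26 on the heparin, 4.70 on the PPS, 4.26 on the warm and 5.80 on the cold array. As its warm value lies below the floor, the log2 difference of -1.29 is a bound: the gene was at least 2.44-fold lower. Gna14 was also lower in PPS minus cold (-1.11), as were 0.788% of all genes by 2-fold or more. None of the 11 beta and gamma subunits and GoLoco proteins above the floor passed 2-fold in any of the 6 comparisons. Their median in warm minus cold was 0.08.

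Among receptors and effectors, only single genes passed 2-fold. Of 40 receptors on the array, 15 were above the floor. Of these, 1 was 2-fold or more higher in warm minus cold, where 2.48% of all genes were. It was Cxcr4, the receptor of the chemokine CXCL12, with log2 values of 6.38 on the heparin, 6.57 on the PPS, 8.16 on the warm and 4.07, below the floor, on the cold array. Cxcr4 was at least 12.5-fold higher on the warm than on the cold array, and its log2 difference was -1.78 in heparin minus warm. The PPS array was also lower than the warm one for Cxcr4, with -1.59. Agtr1a, the angiotensin II receptor whose signal Rgs2 limits, differed by -0.81 in warm minus cold, short of 2-fold. Of 32 effectors on the array, 20 were above the floor. Only Itpr3, a calcium channel gated by inositol trisphosphate, passed 2-fold. Its log2 difference was 1.12 in warm minus cold, with the same 2.48% of all genes higher by 2-fold. In PPS minus cold it was 1.03, and there 1.03% of all genes were higher by that size. Of 12 receptor kinases and arrestins on the array, 9 were above the floor. Of these, Arrdc2, an arrestin domain protein, passed 2-fold, with 1.80 in warm minus cold, where 2.48% of all genes were higher by that size. It was also lower by 2-fold in PPS minus warm (-1.16), where 1.71% of all genes were. With heparin it fell short of 2-fold against the warm array (-0.92).

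Small GTPases related to Rasd1 were looked at as well. Of 12 above the floor, 3 were 2-fold or more higher and 1 lower in warm minus cold, against 2.48% and 1.16% of all genes, with a median of 0.24. The higher ones included Gem, a Ras-like GTPase that restrains calcium channels (2.05), and Rasl11b (1.46). The lower one was Rerg (-1.08), an estrogen-regulated member of the Ras family. Rasd2, the closest relative of Rasd1, had 4.66 on the heparin, 4.65 on the PPS, 5.01 on the warm and 4.59 on the cold array. Gem and Rasl11b were lower in heparin minus warm, with log2 differences of -1.64 and -1.14, and in PPS minus warm, with -1.90 and -1.14. 

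**Figure D5:**
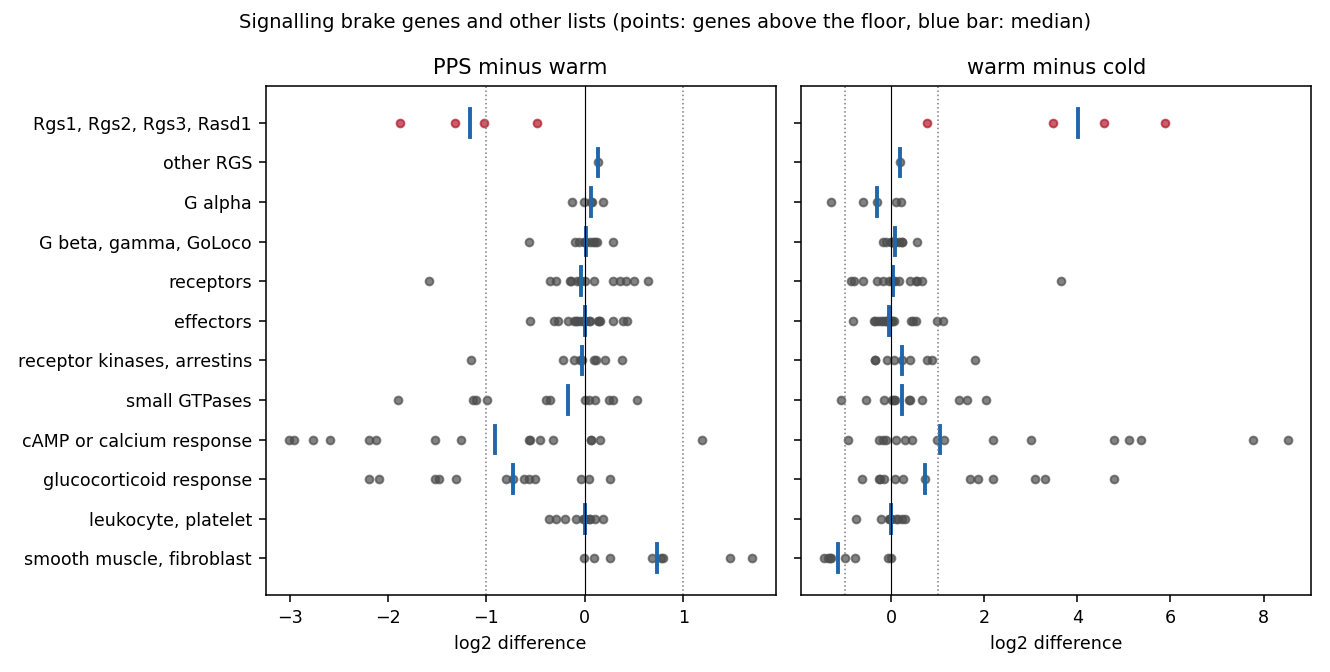
Log2 differences in PPS minus warm and warm minus cold for Rgs1, Rgs2, Rgs3 and Rasd1 (red) and for the genes above the floor in 11 lists (grey), with a blue bar at each median and dotted lines at 2-fold. The medians of the 4 signalling brake genes are -1.17 and 4.02, and in warm minus cold the medians of the alpha subunits, the beta and gamma subunits, the receptors and the effectors are -0.30, 0.08, 0.05 and -0.05.

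Markers showed that the arrays hold kidney RNA and how the other cells moved beside the members. All 15 nephron markers with a probe set were above the floor on every array, and their summed level on the log2 scale was 17.38 on the heparin, 17.45 on the PPS, 17.48 on the warm and 17.38 on the cold array. Of these, 1 passed 2-fold in warm minus cold, the podocyte gene Nphs1, with a log2 difference of 1.06. In that comparison 2.48% of all genes were higher by that size. Rgs1 is best known from leukocytes, though which cells held its RNA here was not tested. Of 26 leukocyte and platelet markers 11 were above the floor, none past 2-fold in any of the 6 comparisons. Their summed level was 13.31 on the heparin, 13.40 on the PPS, 13.58 on the warm and 13.59 on the cold array. Values were summed on the linear scale, so most of this level is Lyz2, at 13.00, 13.07, 13.28 and 13.31 in the same order. The B cell markers Ms4a1 and Cd79b were at the lowest value on all 4 arrays. Of 8 smooth muscle, pericyte and fibroblast markers above the floor, 4 were 2-fold or more lower in warm minus cold and none was higher. In that comparison 1.16% of all genes were lower by that size. The summed level of this list was 11.39 on the heparin, 11.97 on the PPS, 11.11 on the warm and 12.12 on the cold array. On each array Pdgfra and Col1a2 had the highest values of the list and weigh most in this sum, with 10.79 and 9.97 on the cold array. The smooth muscle actin gene Acta2 differed by only -0.07 in warm minus cold, while Tagln was at -1.31. The collagen genes Col1a1 and Col1a2 of that list were 2-fold or more higher in PPS minus warm (1.70 and 1.47), where 0.511% of all genes were. Of 10 endothelial markers, none passed 2-fold in warm minus cold, and Vwf was 2-fold or more lower in heparin minus cold (-1.59), where 0.916% of all genes were. Fewer cells of a type and less RNA per cell cannot be told apart in such pooled tissue.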

How the data were processed

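Each of the 4 arrays holds RNA pooled from 3 rat kidneys, with 6 ug of total RNA labelled per the labels' protocols. The deposited table holds 1 log2 expression value per probe set and array. According to the submitters' processing notes, the authors used GCRMA, a method that corrects background, normalizes and summarises probe signals (version not given in the sources used here). No header states the log2 scale, which was inferred from a range of 2.11 to 16.4. GCRMA makes the distributions of the arrays alike, which hides any difference in total messenger RNA.

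Of 31099 probe sets, 57 are controls and 436 carry several symbols and were not used. Another 9780 are unnamed here, and 20826 have 1 symbol, of which 20758 were matched by Entrez number to RefSeq (GRCr8). Values below the 50th percentile of the table (4.51) were raised to it, and a gene was analysed if it exceeded it on at least 1 array. Between 9253 and 9303 genes did so per array. With 1 array per group, no test between groups was made, and a difference counted from 2-fold. The number of arrays limits the precision. The calculation (Python 3.11.15, pandas 2.3.3) was tested on simulated data. The members, the 13 gene lists and the rule for named genes were chosen with earlier results of these data known. Named genes were all members, at most 4 per list, comparison and direction past 2-fold, markers near the floor, and the 3 genes nearest in pattern to each member with a range of at least 1. Some genes were named outside this rule. Among them are Rgs10, Rasd2, Agtr1a, Crem, Fkbp5, Tsc22d3, Lyz2, Pdgfra, Acta2 and Uchl5, all short of 2-fold, and Rgs18, Gnaq and Gna11, below the floor. Alternatives changed the floor, the scaling, the probe set and the size limit. The values of 1 small GTPase that entered the counts are not reported here.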

Additional observations from a re-analysis of the deposited data

How the results depend on the processing

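Rgs1, Rgs2 and Rasd1 stayed above the cold array under all alternatives tried, though not always by 2-fold. With arrays scaled to the median of the poly-A controls, members past 2-fold were 3 higher and 1 lower in warm minus cold, 2 higher and 1 lower in heparin minus cold and 1 higher and 1 lower in PPS minus cold, each reported as 3 higher and 0 lower. The lower one was Rgs3, at -1.29, -1.65 and -1.48, reported as 0.77, 0.27 and 0.29. With their median difference Rgs3 was just past 2-fold lower in heparin minus cold. In heparin minus warm the count of 1 was 0 after scaling to the median of the poly-A or of the hybridisation controls, 3 at a limit of 1.5-fold and 0 at 3-fold. In PPS minus warm the count of 3 was 1 at 3-fold, and it was 2, without Rgs2, after centring on the median gene or either poly-A scaling. In heparin minus PPS the count of 0 was 2 with the hybridisation controls and 2 at 1.5-fold. Of 192 member values under other settings, 154 moved by less than 1.5-fold, but many of these could not move, such as values above a changed floor. Under each poly-A scaling 12 of 24 values moved by 1.5-fold or more, and these were all the differences from the cold array. Without a floor Rgs1 differed by 6.49 in warm minus cold, and with a floor at the 60th percentile by at least 3.67. Scaling to the median of the poly-A probe sets on each array, those for Trp included, put the median gene at -2.07 in warm minus cold, with Rgs1 at 3.82 or more, Rasd1 at 2.51 and Rgs2 at 1.40. The scaling to their median difference was added after seeing the data. Scalings also turned the split of all genes past 2-fold. The split furthest from the reported one came with the poly-A median in warm minus cold (39 higher and 9190 lower, reported 233 and 109), heparin minus cold (16 and 9261, reported 110 and 86), PPS minus cold (12 and 9215, reported 97 and 74) and PPS minus warm (109 and 100, reported 48 and 161). It came with the hybridisation controls in heparin minus warm (87 and 84, reported 36 and 139) and heparin minus PPS (153 and 11, reported 18 and 28). No paired analysis was possible because each group is 1 array, and for the same reason no array could be left out.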

Other observations

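Genes known to respond to cAMP or calcium were spread widely. Of 16 above the floor, 8 were 2-fold or more higher in warm minus cold and none lower, against 2.48% and 1.16% of all genes, with a median log2 difference of 1.06, against -0.0032 for all genes. Atf3, a stress-induced transcription factor, was at least 8.52 higher, Fos 7.77, and the nuclear receptors Nr4a1 and Nr4a2 5.37 and 5.11. In heparin minus warm 6 of the 16 were lower by 2-fold or more, against 1.48% of all genes, among them Nr4a1 (-1.71). There 1 was higher, the EGF receptor ligand Areg (1.65), as were 36 of all 9393 genes by 2-fold or more. In PPS minus warm 8 were lower, against 1.71% of all genes, among them Nr4a1 (-2.59) and the repressor Nfil3 (-2.77). Areg was again higher (1.19), as were 0.511% of all genes by 2-fold or more. Crem, a cAMP-responsive regulator, did not pass 2-fold in any comparison, with -0.27 in warm minus cold.

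Rasd1 is known as a gene induced by glucocorticoids. Of 13 other glucocorticoid-responsive genes above the floor, 6 were 2-fold or more higher in warm minus cold and none lower, against 2.48% and 1.16% of all genes, with a median of 0.72. The higher ones included Dusp1 (4.79), Pdk4 (3.30), which restrains pyruvate dehydrogenase, and Cebpd (3.09). Dusp1 and Per1 (2.20) are also in the cAMP or calcium list above and count among its higher genes, so the lists overlap. Fkbp5, a chaperone of the glucocorticoid receptor, differed by -0.62 and Tsc22d3, an anti-inflammatory leucine zipper protein, by -0.15, both short of 2-fold and in the other direction from Rasd1. In PPS minus warm 5 of the 13 were lower by 2-fold or more, against 1.71% of all genes, and in heparin minus warm 3 were, against 1.48%.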
